A study of Mus musculus with 12 samples.

Results

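Wild-type CD4+CD8+ thymocytes that display CD71 were compared with those that do not. CD71 is the transferrin receptor, through which cells take up iron, and dividing thymocytes carry it at their surface. The 6 samples were the 3 labelled WT_71+ and the 3 labelled WT_71-, of 12 in the whole study, and all 18138 gene symbols of the array table were considered. Both groups came from the thymus of C57BL6/J mice aged 8 to 12 weeks, of mixed sex and Caph2+/+, so they carry the normal allele of the gene now called Ncaph2. Both were sorted as CD4+CD8+FSClo cells and differed by label only in CD71. FSClo is taken here from the titles as a low forward scatter gate, a measure of cell size. The other 6 samples were the same CD71-negative and CD71-positive populations from mice carrying the I15N change in Ncaph2, again 3 of each. Whether the 3 samples per group are 3 animals, pools or repeats of 1 pool is not stated in the labels. The p-values therefore cover the spread among samples and no more, and this spread may be technical.

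Most thymocytes are double-positive cells, which carry both CD4 and CD8. After a productive T-cell receptor beta chain has been made, thymocytes pass through a burst of divisions as they become double positive. They then leave the cell cycle, rearrange the receptor alpha chain with the Rag1 and Rag2 recombinase and wait as small resting cells for selection through the receptor. In a dividing cell E2F factors switch on the genes of the G1/S transition and of DNA replication. Later, B-Myb and FoxM1, working with the MuvB complex, switch on the genes of G2 and mitosis. Dividing cells also make nucleotides, histones, ribosomes and new membranes.

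The deposited signals were read as normalized log2 signal, on which the dimmest detected genes of an array lay at 5.42 to 5.43, close to the floor. The deposited detection p-values did not always follow the signal, and some genes well above the floor missed detection on some arrays. Mean signal before normalization was 95.1, 148 and 180 on the CD71-negative arrays and 203, 135 and 153 on the CD71-positive arrays, and 5893 to 7415 genes were detected per array. Arrays correlated across genes at 0.867 to 0.917 between the groups, and the first principal component, with 76.5% of the variance, separated the groups without overlap. Every sample was amplified from 80 ng of total RNA, so the values compare shares of the RNA, and fewer cells of a type cannot be told apart from less RNA per cell. A gene was tested if its detection p-value was under 0.05 on at least 3 of the 12 arrays. With 3 arrays a group, precision is limited by their number.

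Genes of the sort markers were checked first, with Prc1 and Top2a, 2 genes of dividing cells that were not part of the sort. Tfrc, which encodes CD71, measured 6.56, 6.52 and 7.32 on the CD71-negative arrays and 8.16, 7.77 and 7.92 on the CD71-positive arrays. The groups did not overlap, and the log2 difference, CD71-positive minus CD71-negative throughout, was 1.15 ± 0.28 (SE of the fit, adjusted p = 0.0143, limma). The call was lost without CD71-negative array 1 or 2 or CD71-positive array 1 (adjusted p = 0.0517 to 0.0532). Prc1, which bundles microtubules between the separating chromosomes, measured 6.01, 5.99 and 5.85 on the CD71-negative arrays and 11.04, 11.03 and 10.77 on the CD71-positive arrays. Top2a, the topoisomerase that untangles replicated chromosomes, measured 5.76, 5.78 and 5.64 on the CD71-negative arrays and 10.43, 10.32 and 10.40 on the CD71-positive arrays. Cd8b1, the beta chain of CD8, was bright in both groups, at 12.88, 12.70 and 12.40 against 11.17, 11.66 and 11.78. Cd4 measured 6.88, 6.29 and 6.15 against 5.59, 5.73 and 5.64. Both were called lower in CD71-positive cells, at -1.125 and -0.79 (adjusted p = 0.00104 and 0.00713, limma). Both calls were lost with the arrays scaled at their 75th percentile. The entry for Cd8a, the alpha chain, was detected on 0 of 12 arrays, so it says nothing of the sort.

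Markers of other cells of the thymus were low. Of the 14 erythroid markers on the array 0 were tested, and Hba-a1, Hbb-b1 and Klf1 were detected on 0 of the 6 wild-type arrays. Of the 11 B-cell markers 1 was tested, Cd79b (-0.19, no call), while Ms4a1 was not detected. Of the 21 markers of epithelium and stroma 5 were tested and 1, the endothelial gene Pecam1, was lower (-0.25), with Krt5 and Krt14 not detected. Of the markers of myeloid and dendritic cells 12 were tested, with 0 called higher and 0 lower (median 0.06). Of 23 on the array, 5 were detected on some CD71-negative array and 11 on some CD71-positive array, and their summed linear signal, which includes the floor of each gene, was 977 to 981 in CD71-negative and 1064 to 1191 in CD71-positive samples. Cd74, the class II invariant chain, measured 5.45, 5.47 and 5.43 against 6.76, 6.99 and 6.12, and H2-Ab1 measured 5.43, 5.43 and 5.42 against 6.87, 6.78 and 6.11. Neither passed the test (adjusted p = 0.201 and 0.147), but of 25 alternative settings Cd74 passed in 3 and H2-Ab1 in 6. Across the alternatives 0 to 4 of the myeloid and dendritic markers were called higher. Itgam, Itgax, Csf1r and Cd14 were detected on 0 of 6 arrays. Lyz2 and Fcer1g were detected on 3 of 3 CD71-positive and 0 of 3 CD71-negative arrays, at means of 5.48 and 5.52. The part of these cells in the results below was not tested.

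By limma, 987 of 8247 tested genes were higher and 1080 lower in CD71-positive cells at an adjusted p under 0.05, which is 25.1% of the tested genes, 12.0% higher and 13.1% lower. The median difference over tested genes was -0.01. The rises were larger than the falls. Of the genes called higher, 335 differed 2-fold or more, 92 at least 4-fold and 30 at least 8-fold. Of those called lower, 270 differed 2-fold or more, 17 at least 4-fold and 0 at least 8-fold. The groups did not overlap for 3273 genes (39.7%). With the arrays scaled at their 75th percentile instead of quantile normalization, the median over all genes moved to 0.15, 406 genes were higher and 208 lower (66.1% higher, against 47.8%), and 105 called genes took the other sign without passing the test.

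**Figure D1:**
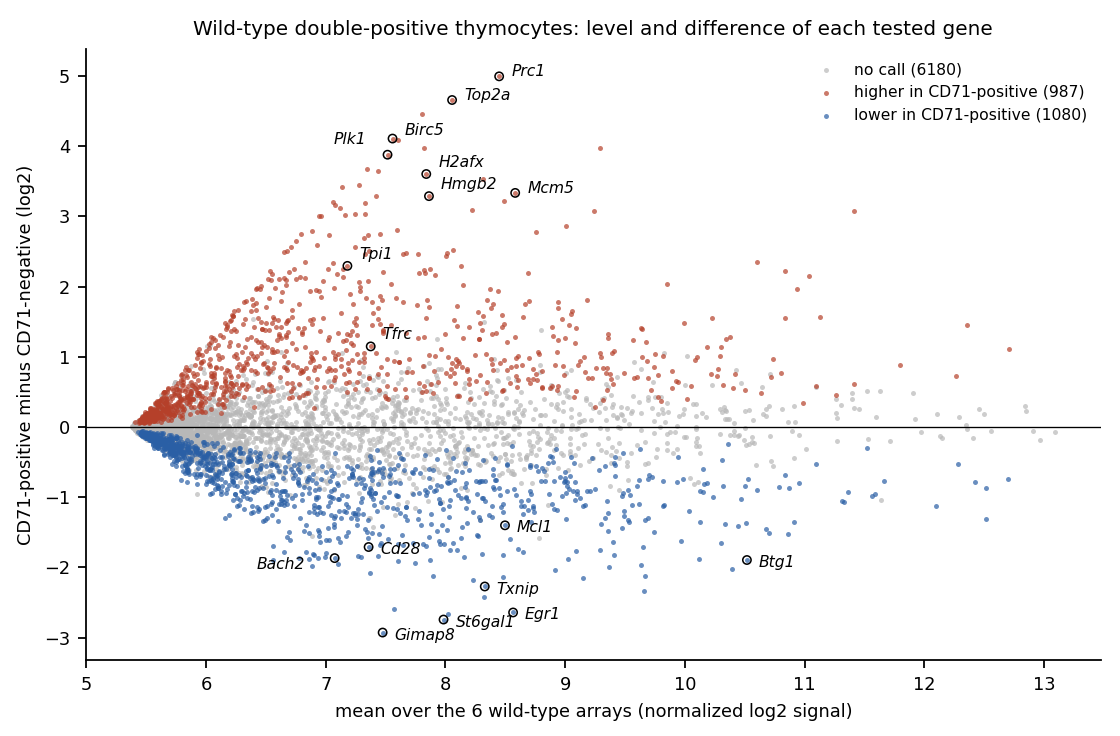
Each point is 1 of 8247 tested genes, with its mean normalized log2 signal over the 6 wild-type arrays on the x axis and its log2 difference, CD71-positive minus CD71-negative, on the y axis. Red points were called higher and blue points lower at an adjusted p under 0.05. The red points reach 4.99 at Prc1 and the blue points -2.93 at Gimap8, and genes near the floor on the left can show only small differences.

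Genes that drive the G1/S transition were higher in CD71-positive cells, while the D-type cyclin genes were not called. Of 14 tested genes of this group 9 were called higher and 0 lower, with a median difference of 0.36, against 12.0% of all tested genes called higher. E2f1, an activator of S-phase genes, measured 5.70, 5.65 and 5.61 on the CD71-negative arrays and 7.97, 8.09 and 7.94 on the CD71-positive arrays. The 2 groups were far apart, and the difference was 2.35 ± 0.05 (5.08-fold, adjusted p = 1.1e-08). Tfdp1, the partner with which E2F factors bind DNA, measured 6.14, 6.64 and 6.35 against 8.53, 9.06 and 8.15 and differed by 2.20 ± 0.34. Cdk2, the kinase of S-phase entry, differed by 1.11 ± 0.12, E2f2 by 1.03 ± 0.10, Cdc25a, the phosphatase that activates Cdk2, by 0.88 ± 0.20, and Ccne2, a cyclin E gene, by 0.82 ± 0.19.

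Ccnd3, the D-type cyclin that thymocyte expansion depends on in mice, was bright in both groups, at 10.13, 9.86 and 10.15 against 10.19, 10.37 and 10.16. Its difference of 0.19 did not pass (adjusted p = 0.131, 95% interval 0.00 to 0.38). Ccnd2 gave -0.35 with an interval of -1.26 to 0.55, too wide to place it. Rbl1, the pocket protein p107 and itself a known E2F target, was higher by 0.54 ± 0.12, and so was the repressor E2f6, by 0.53 ± 0.08. Among Cdk inhibitors, Cdkn2c, which binds Cdk4 and Cdk6, was higher in CD71-positive cells. It measured 5.70, 5.57 and 5.52 against 6.60, 7.31 and 6.52, a difference of 1.22 ± 0.20. Cdkn1c was also higher, by 0.41 ± 0.07, and Cdkn2d gave 0.02 with an interval of -0.27 to 0.30. With the arrays scaled at the 75th percentile 4 members of the G1/S group were called higher. The calls of Cdc25a, Ccne2, Rbl1, E2f6 and Cdkn1c were lost with that scaling.

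Nearly all parts of the replication machinery were represented among the rises. Of the origin licensing and helicase genes 18 of 25 were higher and 0 lower (median 1.40). Of the polymerase and fork genes 18 of 26 were higher and 0 lower (median 0.81). Mcm5 and Mcm6 encode subunits of the replicative helicase. Mcm5 measured 7.07, 6.91 and 6.76 on the CD71-negative arrays and 10.38, 10.49 and 9.88 on the CD71-positive arrays, a difference of 3.33 ± 0.20. Mcm6 measured 5.88, 6.08 and 5.97 against 8.78, 8.73 and 8.50, a difference of 2.70 ± 0.09. Orc6l (Orc6), of the origin recognition complex, differed by 2.48 ± 0.23, Cdt1, which loads the helicase at origins, by 2.25 ± 0.17, and Dbf4, the activator of the Cdc7 kinase that fires them, by 2.03 ± 0.14. Mcm10, an initiation factor, was detected on 3 of 3 CD71-positive and 0 of 3 CD71-negative arrays and was at least 6.26-fold higher.

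At the fork, Pold1, the catalytic subunit of DNA polymerase delta, measured 6.10, 6.11 and 6.14 on the CD71-negative arrays and 8.58, 8.88 and 8.38 on the CD71-positive arrays. No CD71-negative value came near the CD71-positive ones (difference 2.50 ± 0.13, adjusted p = 2.9e-06). Fen1, which trims Okazaki fragments, differed by 2.48 ± 0.27, Rpa3, of the single-strand binding complex, by 2.19 ± 0.23, and the clamp loader genes Rfc5, Rfc2 and Rfc1 by 1.93, 1.75 and 1.73. 2810417H13Rik (Pclaf), a partner of the sliding clamp, measured 5.40, 5.64 and 5.62 against 9.62, 9.63 and 9.69 and was detected on 2 of 3 CD71-negative arrays. Pcna, the clamp itself, measured 5.59, 5.52 and 5.68 against 7.25, 5.90 and 5.97. The groups did not overlap, but its difference of 0.78 ± 0.50 did not pass (adjusted p = 0.31). Prim1 and Orc2l (Orc2) lay near the floor on all arrays, where no difference can be seen. With 75th percentile scaling 15 licensing and 11 fork genes were called higher.

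Supply of nucleotides followed the same direction. Of the deoxynucleotide and folate genes 12 of 19 were higher (median 0.19), and of the purine and pyrimidine genes 11 of 20 (median 0.36), with 0 and 0 lower. Rrm1, the large subunit of ribonucleotide reductase, measured 5.75, 5.86 and 5.71 on the CD71-negative arrays and 8.97, 9.29 and 8.91 on the CD71-positive arrays. Rrm2, the small subunit, differed by 1.67 ± 0.17, Tyms, thymidylate synthase, by 1.82 ± 0.10, and Tk1, thymidine kinase, by 1.19 ± 0.13. Hprt1 (Hprt), of purine salvage, differed by 2.02 ± 0.14, Ctps, which makes CTP, by 1.93 ± 0.10, and Prps1, which makes the sugar donor of both pathways, by 1.78 ± 0.38. Impdh2, of guanine nucleotide synthesis, differed by 1.39 ± 0.28. With 75th percentile scaling 5 deoxynucleotide genes and 7 purine and pyrimidine genes were called higher.

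Chromatin assembly genes were higher in 18 of 26 cases and lower in 0 (median 1.40). H2afx (H2ax), a histone H2A variant, measured 6.36, 5.94 and 5.82 on the CD71-negative arrays and 9.61, 9.97 and 9.35 on the CD71-positive arrays, and H2afz (H2az1), another variant, differed by 2.87 ± 0.23. The replacement histone genes H3f3a and H3f3b, which are made outside S phase too, gave 0.33 and -0.18 and did not pass. Chaf1a, of the assembly factor that works behind the fork, differed by 2.17 ± 0.18, and Dnmt1, which copies DNA methylation, by 1.97 ± 0.16. Uhrf1, which recruits Dnmt1, measured 6.37, 6.60 and 7.05 against 9.72, 9.90 and 9.68. The groups were far apart, although its deposited detection p-value passed on only 1 of 3 arrays in each. Hmgb2 and Hmga1, abundant architectural proteins, differed by 3.29 ± 0.31 and 2.17 ± 0.18. Repair genes of recombination, mismatch and crosslink pathways were higher in 12 of 30 cases and lower in 1 (median 0.09), 4 and 0 with 75th percentile scaling. The lower count was 0 without CD71-negative array 2 or 3, CD71-positive array 1 or 2, mutant arrays CD71-negative 2, CD71-positive 1 or CD71-positive 2, and 2 without mutant CD71-negative array 1. E130016E03Rik (Rad54b) differed by 3.16 ± 0.09 and Rad54l by 2.09 ± 0.14, both of recombination.

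Genes of G2 and mitosis held many of the largest differences of the comparison. Of the G2/M regulators 12 of 15 were higher, of the mitotic kinesins 7 of 8, of the spindle and cytokinesis genes 18 of 22, of the kinetochore genes 16 of 21 and of the checkpoint and anaphase genes 9 of 17, with 0 lower in each of the 5 lists. Their medians were 1.03, 2.18, 1.72, 0.54 and 0.22. Plk1, a kinase of mitotic entry and exit, measured 5.57, 5.58 and 5.58 on the CD71-negative arrays and 9.48, 9.57 and 9.31 on the CD71-positive arrays, a difference of 3.88 ± 0.06 (14.7-fold). Aurka, the spindle pole kinase, measured 5.67, 5.56 and 5.63 against 9.43, 9.26 and 9.08, a difference of 3.64 ± 0.18. Ccnb1, cyclin B1, measured 5.42, 5.44 and 5.42 against 9.17, 8.58 and 8.80, a difference of 3.42 ± 0.17, and was detected on 1 of 3 CD71-negative arrays.

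The promoters of these 3 genes and of the helicase genes Mcm5 and Mcm6 are shown with the motifs whose shares are compared below. They were chosen as large rises of the G2/M and licensing lists with a promoter window, and not by their motifs. Each line gives the 160 bases before the annotated start, 5′ to 3′ in the direction of the gene, from RefSeq on GRCm38.p6. Capitals mark CCAAT boxes (CCAAT or its reverse complement ATTGG) and E2F motifs on either strand, which can overlap. The E2F spellings searched were TTCCCGC as the first, TTCGCGC as the second, TTGCCGC as the third and TTGGCGC as the fourth. In Plk1 and Aurka the cell cycle homology region, TTTGAA, to which the MuvB complex binds, lies 31 and 33 bases into the transcribed part, and 20 bases around it are given with the motif in capitals. A match of letters does not show that a factor binds.
Plk1, chr7:122159275-122159434, plus strand: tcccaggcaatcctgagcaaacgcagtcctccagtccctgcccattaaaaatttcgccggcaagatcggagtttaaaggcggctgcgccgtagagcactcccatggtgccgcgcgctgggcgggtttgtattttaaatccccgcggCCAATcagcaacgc
Plk1, downstream stretch, chr7:122159458-122159477, plus strand: cgccgcgTTTGAAttcgggg
Aurka, chr2:172370571-172370730, minus strand: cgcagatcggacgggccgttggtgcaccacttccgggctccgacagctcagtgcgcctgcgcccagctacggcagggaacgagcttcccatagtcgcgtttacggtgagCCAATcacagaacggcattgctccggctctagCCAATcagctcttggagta
Aurka, downstream stretch, chr2:172370526-172370545, minus strand: gagaaccTTTGAAttgtaac
Ccnb1, chr13:100786487-100786646, minus strand: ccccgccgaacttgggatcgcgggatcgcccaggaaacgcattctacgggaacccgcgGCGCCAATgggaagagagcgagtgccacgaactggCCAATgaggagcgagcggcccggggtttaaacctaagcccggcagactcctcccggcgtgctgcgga
Mcm5, chr8:75109349-75109508, plus strand: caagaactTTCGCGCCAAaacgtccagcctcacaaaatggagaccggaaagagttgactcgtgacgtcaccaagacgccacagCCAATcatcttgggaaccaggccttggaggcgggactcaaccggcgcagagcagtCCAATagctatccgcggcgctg
Mcm6, chr1:128359706-128359865, minus strand: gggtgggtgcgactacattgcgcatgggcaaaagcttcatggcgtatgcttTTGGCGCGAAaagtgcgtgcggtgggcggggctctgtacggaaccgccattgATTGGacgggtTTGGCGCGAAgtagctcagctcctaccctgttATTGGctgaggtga

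Plk1 had 1 CCAAT box before its start, first base at -14, and Aurka 2, at -51 and -19. Ccnb1 had 2, at -99 and -67, the first joined to an E2F motif at -102. Mcm5 had 2 in the printed part, at -77 and -22, and E2F motifs at -152 and -149. Mcm6 had inverted CCAAT boxes at -57 and -14 and E2F motifs at -109, -106, -46 and -43, which form 2 overlapping pairs.

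The same motifs were counted in all promoters, 250 bases before to 50 after the start, with 1 window for each of 6314 tested genes that had one. The shares are a description with no test. The cell cycle homology region stood in 50.0% of the promoters of genes 8-fold or more higher (13 of 26), in 35.3% of those 4- to 8-fold higher, in 11.8% of those with no call and in 9.48% of those called lower. It stood in 58.0% of the 50 promoters of genes called higher in the mitosis lists but in 14.3% of the 42 in the replication lists. E2F motifs had the reverse order, at 22% in the mitosis and 50.0% in the replication lists, against 15.9% with no call and 12.5% called lower. CCAAT boxes stood in 76.9% of the promoters 8-fold or more higher, 39.2% with no call and 37.3% called lower. Among the lower genes the share was 17.9% (5 of 28) in the T-cell lists but 70.0% (7 of 10) in those 4-fold or more lower, of which 2 held the cell cycle homology region and 2 an E2F motif. Over all 27025 promoters of the table the shares were 18.2% for the cell cycle homology region, 9.72% for E2F and 38.0% for CCAAT. Median GC content was 60.3% in promoters called higher, 60.3% with no call and 61.7% called lower. The E-box CACGTG, the site of Myc, stood in 10.1% of promoters called higher, 10.8% with no call and 9.6% called lower.

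**Figure D2:**
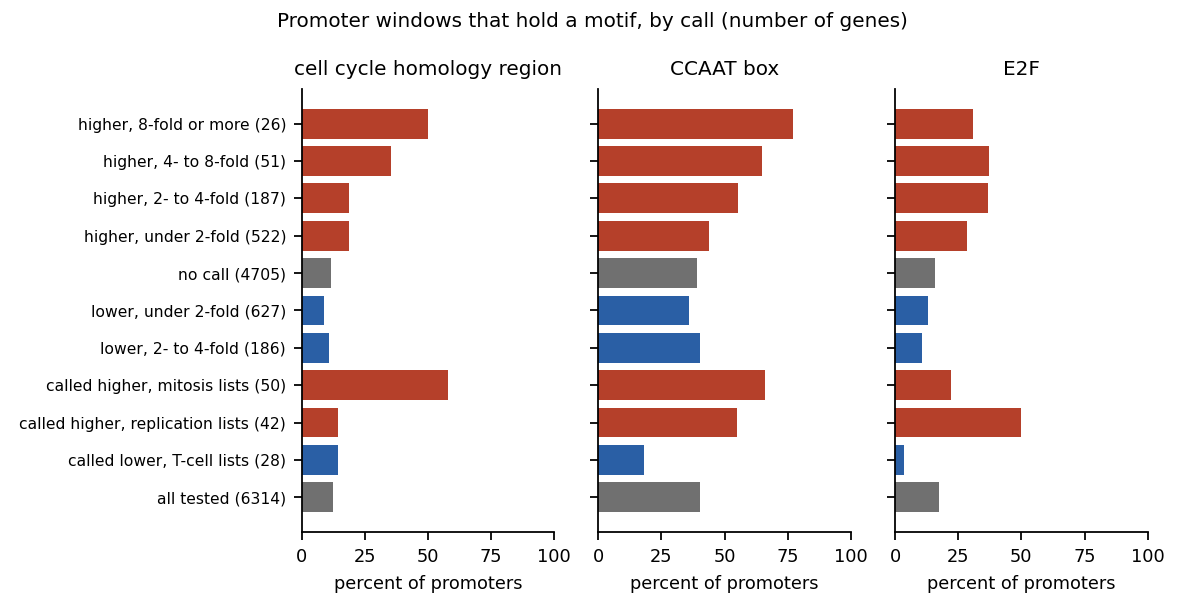
Bars give the percent of promoter windows that hold each of 3 motifs, by the call of the gene, with the number of genes in parentheses (red, higher in CD71-positive cells; blue, lower; grey, no call or all tested). The share with the cell cycle homology region rises from 11.8% in genes with no call to 50.0% in genes 8-fold or more higher, and E2F motifs are most frequent in the replication lists.

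Among the regulators of mitosis, Foxm1, a transcription factor of G2/M genes, differed by 1.46 ± 0.16, Lin54, the DNA-binding subunit of MuvB, by 1.55 ± 0.26, and Gtse1 by 1.97 ± 0.08. Mybl2, which encodes B-Myb, was detected on 2 of 3 CD71-positive and 0 of 3 CD71-negative arrays and was at least 1.29-fold higher. Cdc2a (Cdk1), the mitotic kinase, was detected on the same numbers of arrays and was at least 2.04-fold higher. Ccna2 and Cks2, also of the cell cycle kinase, lay near the floor in both groups (means 5.51 and 5.41 in CD71-positive cells), so they are not informative here.

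Motor and spindle genes rose together. Kif11, the kinesin that pushes spindle poles apart, measured 5.41, 5.42 and 5.45 against 7.92, 8.57 and 7.47 and was detected on 1 of 3 CD71-negative arrays. Kif22, a chromosome-bound kinesin, differed by 3.98 ± 0.18 and Kif23, of the central spindle, by 2.14 ± 0.13. Kif2c, which depolymerizes microtubules at centromeres, was at least 6.67-fold higher, 3000004C01Rik (Kif18b) at least 4.67-fold and Kif4 at least 2.04-fold, each detected on 3 of 3 CD71-positive and 0 of 3 CD71-negative arrays. Kinesins and dynein subunits of interphase transport did not follow. Of 14 tested 0 were higher and 2 lower, the latter 1 without any 1 CD71-negative array, CD71-positive array 1 or 3 or the third mutant array of either group, with a median of -0.09 that became 0.11 with 75th percentile scaling, where 0 were lower. Kif3a, of transport along axons and cilia, gave 0.05 with an interval of -0.07 to 0.18. The tubulin genes Tuba1b and Tubb2c (Tubb4b) differed by 3.08 ± 0.35 and 2.77 ± 0.33, with near-identical family members that probes may share.

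At the centromere, Cenpa, the histone H3 variant that marks it, measured 6.94, 7.26 and 7.73 on the CD71-negative arrays and 11.54, 10.92 and 11.37 on the CD71-positive arrays, a difference of 3.97 ± 0.22. Spc25, of the Ndc80 complex that holds microtubules, differed by 2.50 ± 0.20, Cenpl by 2.44 ± 0.20 and Cenpn by 1.53 ± 0.13. The passenger complex genes Birc5, Incenp and Cdca8 differed by 4.11 ± 0.22, 3.03 ± 0.16 and 3.002 ± 0.12. Among checkpoint genes Mad2l1 differed by 3.45 ± 0.12 and Bub1b by 1.79 ± 0.22. The activators of the anaphase-promoting complex were both higher, Cdc20 by 3.21 ± 0.12, detected on 2 of 3 CD71-negative arrays, and Fzr1 by 2.52 ± 0.10. Mad1l1 gave -0.51 and did not pass (adjusted p = 0.337). With 75th percentile scaling 7 regulators, 5 kinesins, 16 spindle, 5 kinetochore and 6 checkpoint genes were called higher.

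The condensin and cohesin list, which compacts and pairs chromosomes, had 12 of 20 higher and 2 lower (median 0.65, 9 and 0 with 75th percentile scaling). Ncaph2, the condensin II subunit that is mutated elsewhere in the study, measured 6.69, 6.69 and 6.22 against 7.68, 8.004 and 7.58, a difference of 1.22 ± 0.16. Ncapd3, another condensin II subunit, differed by 1.77 ± 0.16. Esco2 and Cdca5, which establish and protect cohesion in S phase, differed by 1.98 ± 0.16 and 1.57 ± 0.24, and Smc1a, of the cohesin ring, by 1.45 ± 0.14. 9130404D08Rik (Mau2) was lower, at -0.36 ± 0.05. Nipbl, the cohesin loader, was also lower, at -0.87 ± 0.23, and lost its call without CD71-negative array 1 or 3 or CD71-positive array 1 or 2 (adjusted p = 0.0541 to 0.0659).

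Genes of the nuclear lamina and envelope were higher in 4 of 10 cases and lower in 2 (median 0.08), 2 and 0 with 75th percentile scaling. Lmnb1, lamin B1, measured 8.53, 8.27 and 7.90 on the CD71-negative arrays and 9.52, 9.98 and 10.16 on the CD71-positive arrays, a difference of 1.65 ± 0.39, and Lmnb2 differed by 0.92 ± 0.12. Banf1, which binds DNA at the reforming envelope, differed by 2.24 ± 0.31. Unc84b (Sun2) and Lemd2, inner membrane proteins, fell by 0.91 and 0.84 on the log2 scale, and Lbr gave -0.26 with no call. The calls of Lmnb2, Unc84b and Lemd2 were lost with 75th percentile scaling. Nuclear pore and transport genes were higher in 17 of 36 cases and lower in 0 (median 0.20, 6 called with 75th percentile scaling). Ipo5, an importin that carries ribosomal proteins and histones, measured 5.63, 5.73 and 5.93 on the CD71-negative arrays and 8.004, 8.10 and 7.57 on the CD71-positive arrays. Nup62 and Nup93, of the pore channel, differed by 1.73 ± 0.22 and 1.52 ± 0.21, and Rangap1, of the Ran cycle, by 1.21 ± 0.18.

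**Figure D3:**
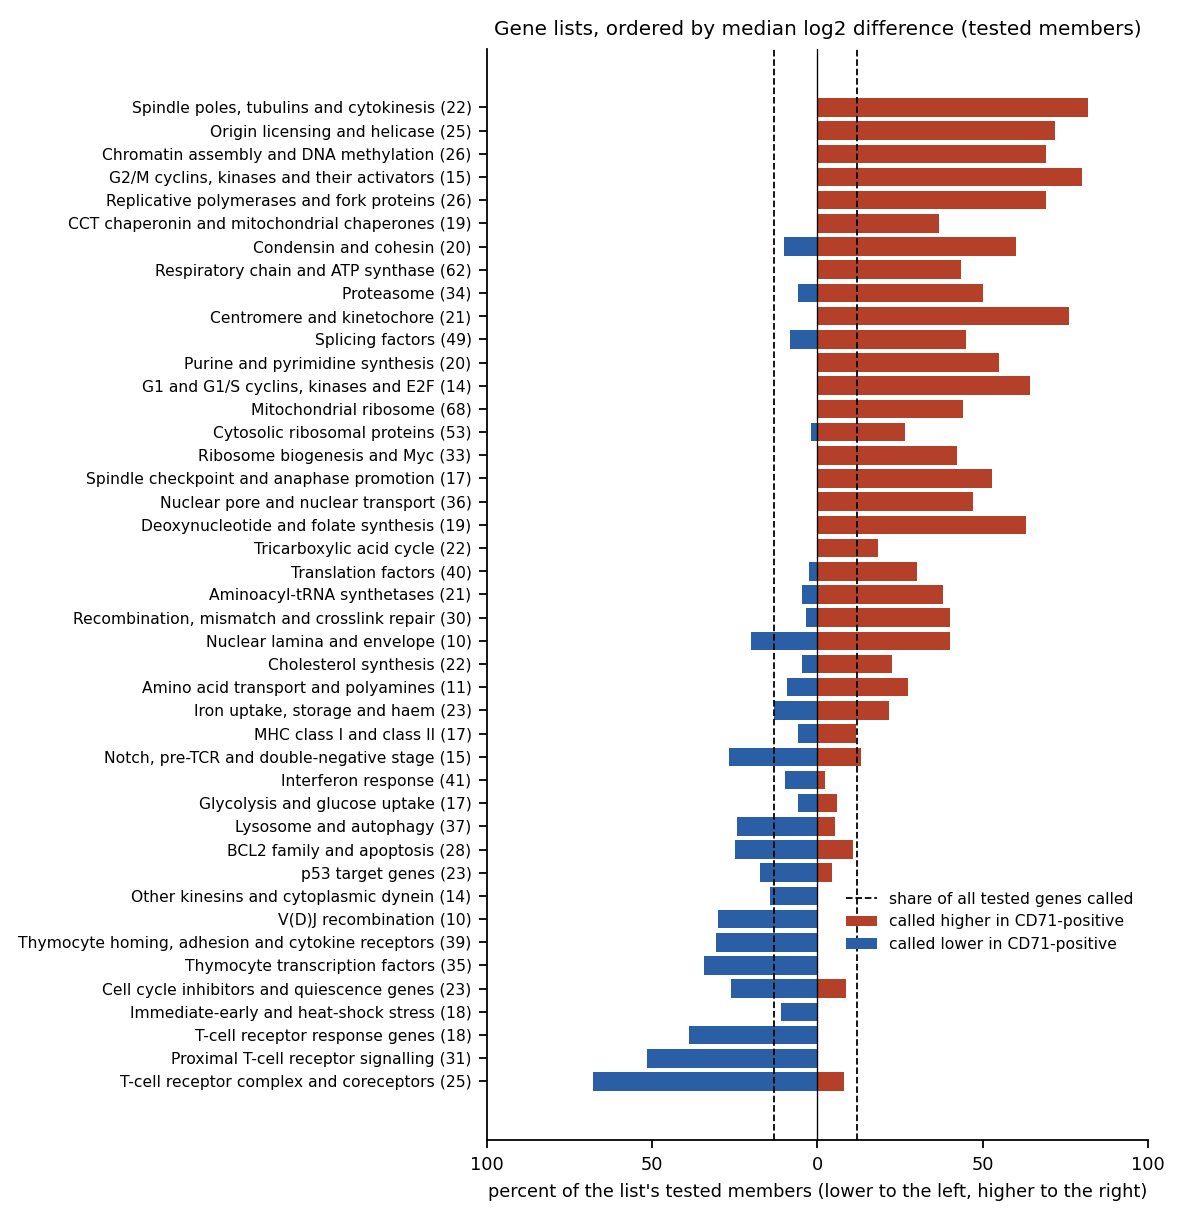
Bars give the percent of each list's tested members called higher (red, to the right) or lower (blue, to the left) in CD71-positive cells, for lists with at least 10 tested members, whose number stands in parentheses. Dashed lines mark the share of all tested genes, 12.0% higher and 13.1% lower. The spindle and origin licensing lists lie at the top, and the receptor complex list, with 68% lower, lies at the bottom.

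Genes of RNA processing, protein synthesis and protein folding were also more often higher than lower. Of the splicing factors 22 of 49 were higher and 4 lower (median 0.51, 14 and 0 with 75th percentile scaling). The core particle genes Snrpd1, Snrpg, Lsm3 and Lsm5 differed by 2.19 ± 0.32, 2.17 ± 0.28, 1.97 ± 0.19 and 1.79 ± 0.26. Snrpd1 measured 7.59, 7.55 and 7.65 on the CD71-negative arrays and 9.85, 9.95 and 9.56 on the CD71-positive arrays. Sfrs5 (Srsf5), a serine and arginine rich regulator of splice site choice, was lower, at 10.23, 9.95 and 10.20 against 8.65, 8.53 and 9.41, a difference of -1.27 ± 0.25. Clk4, a kinase of such regulators, gave -0.96 and lost its call without CD71-negative array 2 or 3 or CD71-positive array 1 or 2 (adjusted p = 0.0606 to 0.0676). Without any 1 of those 4 arrays the count of lower splicing factors was 2. Also lower was Hnrnpc, an RNA packaging protein, at -0.53, which became 0.21 with no call with 75th percentile scaling.

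Ribosome biogenesis genes were higher in 14 of 33 cases and lower in 0 (median 0.26), a count of 8 without CD71-negative array 1 and 5 with 75th percentile scaling. Nol5 (Nop58) and Nola1 (Gar1), of the particles that modify ribosomal RNA, differed by 1.94 ± 0.17 and 1.81 ± 0.16, and Gnl3, nucleostemin, by 1.32 ± 0.17. Myc was detected on 0 of the 6 arrays. Cytosolic ribosomal protein genes were higher in 14 of 53 cases and lower in 1, a count of 7 without CD71-negative array 3 or CD71-positive array 1 or 3. Rps2 differed by 1.56 ± 0.28 and Rpl4 by 1.08 ± 0.10. The bright gene Rpl9 gave 0.02, with an interval of -0.26 to 0.30, although quantile normalization compresses differences near the top of the scale. Translation factors were higher in 12 of 40 cases and lower in 1, 4 and 0 with 75th percentile scaling. Eif5a differed by 1.59 ± 0.21. Eif4a1 and Eif4a2, which encode 2 forms of the helicase that opens messenger RNA, had differences of opposite sign, 0.70 ± 0.14 and -0.69 ± 0.15.

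Vars, the valine tRNA synthetase gene, differed by 1.66 ± 0.22, the largest difference of 21 synthetase genes, of which 8 were higher and 1 lower (0 lower without CD71-negative array 1 or 3 or any CD71-positive array). The count of higher synthetases was 5 without any 1 of the 3 CD71-negative arrays or CD71-positive array 1, 4 without CD71-positive array 2 and 2 with 75th percentile scaling. Chaperone genes were higher in 7 of 19 cases and lower in 0 (median 0.71, and 4 higher without CD71-positive array 2), with the mitochondrial chaperones Hspd1 and Hspa9 at 1.36 ± 0.21 and 1.26 ± 0.12 and Tcp1, of the ring that folds actin and tubulin, at 1.33 ± 0.24. Of the proteasome genes 17 of 34 were higher and 2 lower (median 0.54). The higher count was 10 without CD71-positive array 1 and 8 with 75th percentile scaling, and the lower count was 0 with that scaling and without CD71-negative array 1 or 2 or CD71-positive array 1 or 2. Their differences were moderate, such as 0.97 ± 0.05 for Psmd7, of the regulatory lid, and 0.88 ± 0.09 for Psmb2, of the core.

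Genes of the respiratory chain and the mitochondrial ribosome followed. Respiratory chain and ATP synthase genes were higher in 27 of 62 cases and lower in 0 (median 0.63, 22 higher with 75th percentile scaling). The 3 largest differences belonged to small subunits of complex I, Ndufc1 at 1.81 ± 0.27, Ndufc2 at 1.70 ± 0.29 and Ndufb6 at 1.53 ± 0.21. Atp5b, the catalytic subunit of ATP synthase, was bright in both groups, at 12.27, 12.40 and 12.32 against 12.40, 12.66 and 12.70, and its difference of 0.26 did not pass (adjusted p = 0.0599). Mitochondrial ribosome genes were higher in 30 of 68 cases and lower in 0 (median 0.33), a count of 18 without CD71-positive array 1 and 6 with 75th percentile scaling. Mrpl17 measured 6.30, 6.59 and 6.35 on the CD71-negative arrays and 8.50, 8.17 and 8.10 on the CD71-positive arrays, a difference of 1.84 ± 0.12. Of the tricarboxylic acid cycle genes 4 of 22 were higher, which is 18.2%, near the 12.0% of all tested genes, and 2 with 75th percentile scaling. Fh1, fumarase, was 1 of the 4, at 1.27 ± 0.17.

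Glycolysis did not follow as a list. Of 17 tested genes 1 was higher and 1 lower, both below the shares of all tested genes (12.0% and 13.1%). These counts were 2 higher without CD71-negative array 1 and 2 lower without mutant CD71-positive array 3, and 2 higher and 0 lower with 75th percentile scaling. The 1 higher gene, Tpi1, triose phosphate isomerase, differed clearly, measuring 6.11, 6.13 and 5.87 on the CD71-negative arrays and 8.19, 8.66 and 8.13 on the CD71-positive arrays (difference 2.29 ± 0.14, adjusted p = 7.3e-06). Ldha and Gapdh gave 0.82 ± 0.34 and 0.81 ± 0.32 and did not pass (adjusted p = 0.114 and 0.104). Slc2a1, the glucose transporter, gave -0.14 near the floor. The 1 lower gene was Pdk1, which inhibits pyruvate dehydrogenase, at -0.70 ± 0.20. It lost its call without CD71-negative array 2 or 3 or CD71-positive array 1 or 2 (adjusted p = 0.0751 to 0.0893). Psat1, of serine synthesis, measured 5.67, 5.77 and 5.66 against 8.17, 7.86 and 7.42, a difference of 2.11 ± 0.19, while the amino acid transporter gene Slc38a2 was lower, at -1.32 ± 0.26. Fdps, of isoprenoid synthesis, differed by 1.34 ± 0.28. It was 1 of 5 higher among 22 cholesterol synthesis genes, a count of 2 without CD71-negative array 2 or 3, 3 without CD71-negative array 1 or CD71-positive array 1 or 2, and 1 with 75th percentile scaling.

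Iron handling is the pathway that CD71 serves. Besides Tfrc, Glrx5, which helps build iron and sulfur clusters in mitochondria, measured 7.67, 7.79 and 7.45 on the CD71-negative arrays and 8.75, 8.40 and 8.23 on the CD71-positive arrays, a difference of 0.83 ± 0.17, and Alad, of haem synthesis, differed by 0.77 ± 0.10. Slc25a37, mitoferrin 1, which carries iron into mitochondria, was lower, measuring 7.73, 7.94 and 8.16 against 6.13, 6.48 and 6.56, a difference of -1.55 ± 0.13. Slc25a28, mitoferrin 2, gave 0.42 and did not pass. Of the 23 tested genes 5 were higher and 3 lower. The count of higher genes was 3 without CD71-negative array 1 or 2 or CD71-positive array 1, and that of lower genes 1 without CD71-negative array 1 or CD71-positive array 1 or 2. These counts were 2 and 1 with 75th percentile scaling.

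**Figure D4:**
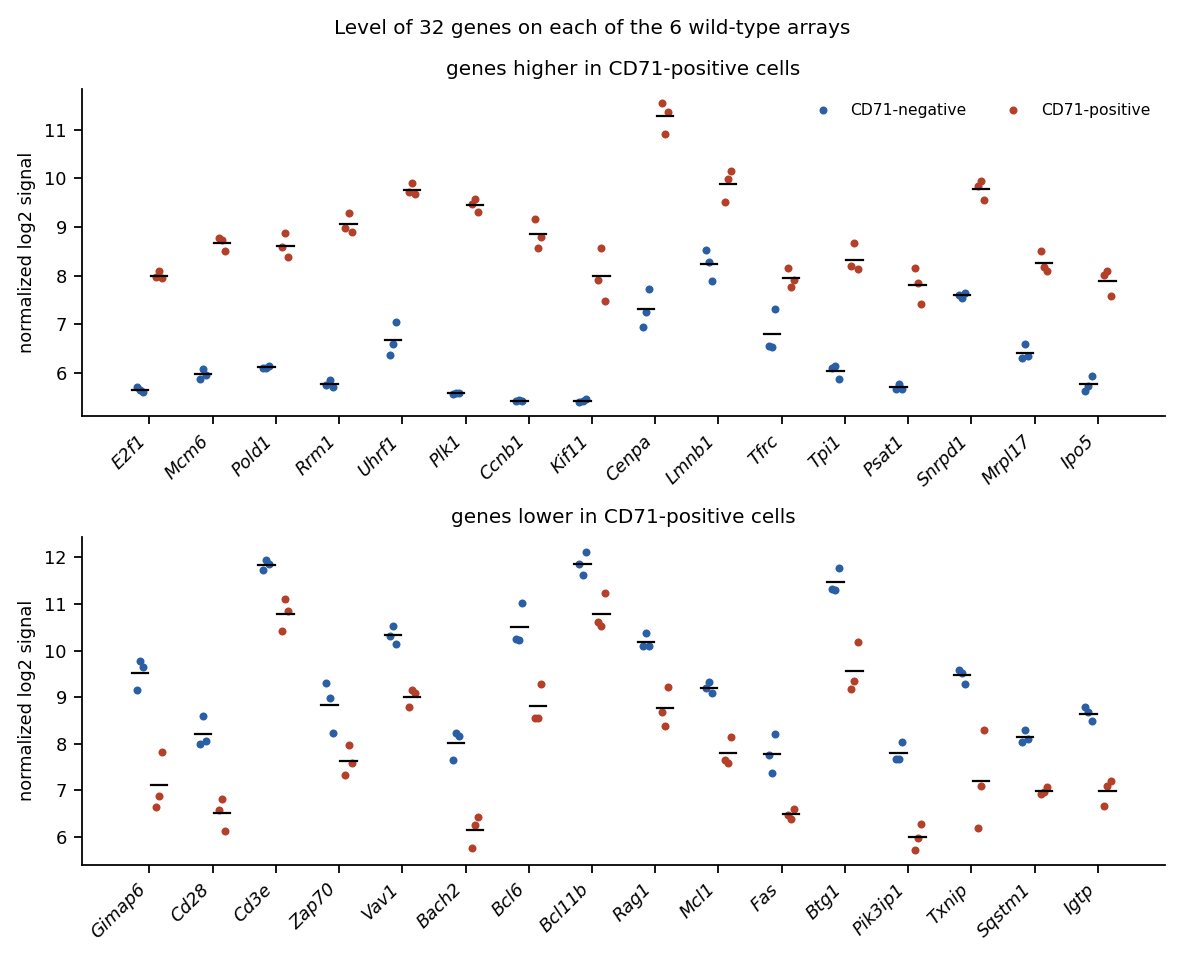
Points give the normalized log2 signal of 32 genes on each of the 6 wild-type arrays, CD71-negative in blue and CD71-positive in red, and black lines give group means. The groups do not overlap for any of the 32, which were picked from called genes, and most rises start from dim values, while most falls start from bright ones.

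The genes lower in CD71-positive cells included much of the T-cell receptor complex. Of the receptor complex and coreceptor genes 17 of 25 were lower and 2 higher (median -0.94), against 13.1% of all tested genes called lower. Cd3e, a signalling chain of the receptor complex, measured 11.73, 11.93 and 11.86 on the CD71-negative arrays and 10.41, 11.11 and 10.84 on the CD71-positive arrays, a difference of -1.05 ± 0.15. Cd3g, Cd3d and Cd247, the other chains, gave -0.98 ± 0.10, -0.79 ± 0.18 and -1.002 ± 0.21. The calls of Cd3e, Cd3g, Cd3d and Cd247 were lost with 75th percentile scaling, and that of Cd3d also with wild-type arrays alone. Costimulatory and adhesion receptor genes were lower too. Cd28 measured 7.99, 8.60 and 8.05 on the CD71-negative arrays and 6.59, 6.80 and 6.12 on the CD71-positive arrays, a difference of -1.71 ± 0.28, Cd27 gave -1.49 ± 0.22 and Cd2, an adhesion receptor, -1.84 ± 0.26. Cd1d1, with which double-positive cells select natural killer T cells, measured 7.77, 7.84 and 8.81 against 6.67, 6.25 and 6.97, a difference of -1.51 ± 0.30. Thy1, the pan-thymocyte antigen, gave -0.79 ± 0.10 at levels close to the top of the scale, and its call was lost with 75th percentile scaling. Ly6d gave 0.40 and did not pass.

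The members called higher were Ly6a, which encodes Sca-1, at 1.12 ± 0.36, and Ptcra, the pre-receptor alpha chain that precedes the double-positive stage, at 0.13 ± 0.04. Ptcra measured 5.55, 5.48 and 5.47 against 5.58, 5.67 and 5.64, close to the floor. The call of Ptcra was lost without CD71-negative array 2 or 3 or CD71-positive array 2 or 3 (adjusted p = 0.083 to 0.103). Ly6a lost its call without any 1 of CD71-negative arrays 1 to 3, CD71-positive arrays 1 and 2, or 4 of the mutant arrays, which enter through the shared spread (adjusted p = 0.0573 to 0.174). With 75th percentile scaling 7 receptor genes were lower and 0 higher.

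Downstream of the receptor, 16 of 31 signalling genes were lower and 0 higher (median -0.72, 4 lower with 75th percentile scaling). Zap70, the kinase recruited to the phosphorylated receptor, measured 9.29, 8.99 and 8.24 on the CD71-negative arrays and 7.33, 7.97 and 7.58 on the CD71-positive arrays, a difference of -1.21 ± 0.26. Lck, the kinase bound to CD4 and CD8, gave -0.93 ± 0.10. Vav1, Rasgrp1 and Prkcq, which carry the signal to the cytoskeleton, Ras and NF-kB, gave -1.32 ± 0.12, -1.30 ± 0.25 and -1.30 ± 0.10. Restraining genes were lower as well. Csk, which inhibits Lck, gave -0.94 ± 0.20 and Dusp6, a phosphatase of Erk, -1.13 ± 0.11. Dgka, which removes diacylglycerol and is not among the 31, gave -2.04 ± 0.30. Lat, the adaptor on which these proteins assemble, gave -0.89 and did not pass (adjusted p = 0.0922).

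Genes that answer receptor signals were lower in 7 of 18 cases and higher in 0 (median -0.55). The count was 4 without CD71-negative array 3, 3 without CD71-positive array 1 or 2 and 2 with 75th percentile scaling. Egr1, an early response factor, measured 9.70, 10.13 and 9.82 on the CD71-negative arrays and 6.80, 6.70 and 8.24 on the CD71-positive arrays, a difference of -2.64 ± 0.43, and Egr2 gave -0.81 ± 0.15. Cd69, an activation marker, measured 9.36, 9.36 and 9.91 against 6.72, 6.53 and 8.98, and its difference of -2.13 ± 0.68 passed narrowly (adjusted p = 0.0489). That call was lost without CD71-negative array 1, 2 or 3, CD71-positive array 1 or 2, any of the 3 mutant CD71-negative arrays or the second mutant CD71-positive array (adjusted p = 0.0506 to 0.153). Junb and Nfkbia gave -1.05 ± 0.81 and -1.33 ± 0.53 and did not pass (adjusted p = 0.403 and 0.102).

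Of 35 transcription factors of thymocytes 12 were lower and 0 higher (median -0.19, 4 lower with 75th percentile scaling). Bach2, a repressor that keeps lymphocytes undifferentiated, measured 7.64, 8.23 and 8.16 on the CD71-negative arrays and 5.75, 6.24 and 6.43 on the CD71-positive arrays, a difference of -1.87 ± 0.22. Bcl6, also a repressor, measured 10.26, 10.24 and 11.03 against 8.56, 8.55 and 9.29, a difference of -1.71 ± 0.39. Bcl11b, a factor of T-lineage identity, gave -1.07 ± 0.21, Ets1 -0.99 ± 0.10, Elf1 -1.38 ± 0.17 and Satb1, an organizer of chromatin in thymocytes, -0.74 ± 0.13. Tcf7 gave -0.70 ± 0.17 and lost its call without CD71-positive array 2 (adjusted p = 0.0529). Runx1 gave -0.18 with an interval of -0.33 to -0.03.

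**Figure D5:**
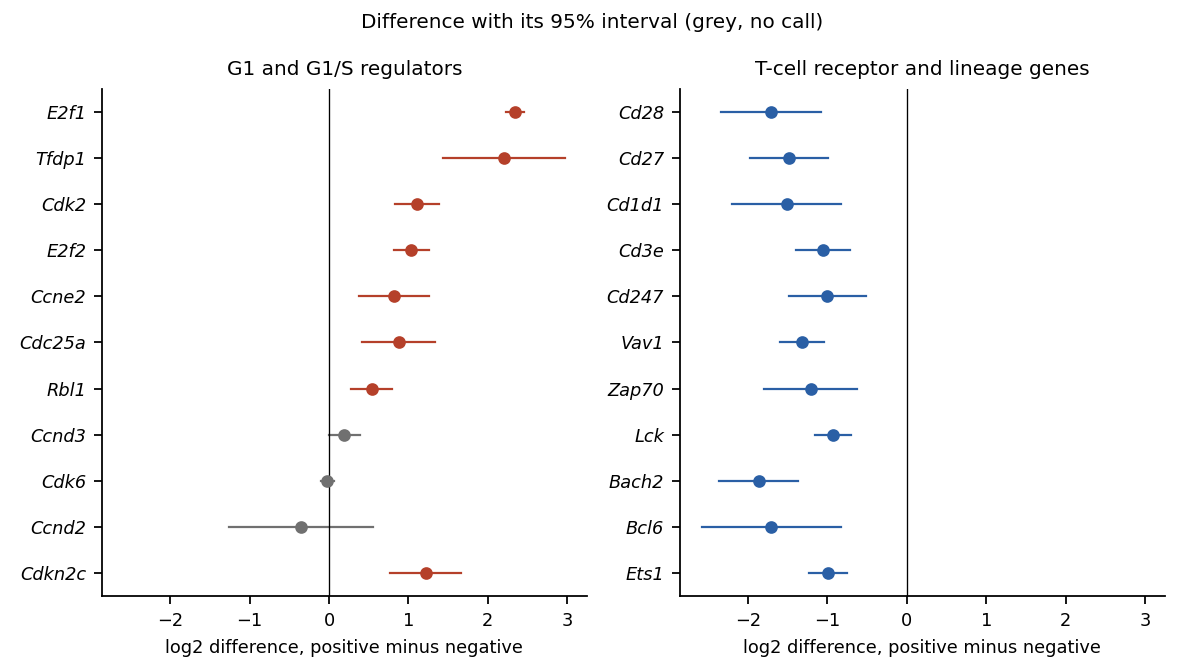
Points give the log2 difference, CD71-positive minus CD71-negative, and lines its 95% interval from the fit, for G1 and G1/S regulators on the left and T-cell receptor and lineage genes on the right. Colour marks the call (red higher, blue lower, grey none). E2f1 lies at 2.35 while Ccnd3 lies at 0.19, and the 11 genes on the right lie between -1.87 at Bach2 and -0.93 at Lck.

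Of the recombinase that assembles receptor genes, Rag1 was lower and Rag2 had no call. Rag1 measured 10.11, 10.37 and 10.10 on the CD71-negative arrays and 8.68, 8.39 and 9.21 on the CD71-positive arrays, a difference of -1.43 ± 0.31. Rag2 lay near the floor, and its difference of -0.18 did not pass (adjusted p = 0.0544), although it passed in 7 of 25 alternative settings. Dclre1c, which opens the hairpin ends that the recombinase leaves, gave -0.34 ± 0.07. Of the 10 genes of this process 3 were lower and 0 higher. The lower count was 1 and the median of -0.09 became 0.09 with 75th percentile scaling. Among Notch and pre-receptor stage genes Trib2, a known Notch target, was lower, at -1.45 ± 0.23, Notch1 gave 0.39 ± 0.46 and did not pass (adjusted p = 0.606), and Notch3 gave 0.14 near the floor.

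All 6 tested GIMAP genes were lower. They encode GTPases that keep resting lymphocytes alive in rodents. Gimap8 measured 9.35, 8.59 and 8.88 on the CD71-negative arrays and 5.64, 5.90 and 6.50 on the CD71-positive arrays, and Gimap6 9.15, 9.77 and 9.65 against 6.64, 6.88 and 7.81. Gimap1 and Gimap9 gave -1.53 ± 0.30 and -1.04 ± 0.17. Gimap7 gave -0.30. Gimap5 was detected on 3 of 3 CD71-negative and 0 of 3 CD71-positive arrays and was at least 1.11-fold lower. With 75th percentile scaling 3 of the 6 were called lower, and the difference of Gimap5 became 0.02.

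Several genes tied to rest outside the cell cycle fell by large amounts. Txnip, which limits glucose uptake, measured 9.58, 9.52 and 9.29 on the CD71-negative arrays and 6.20, 7.10 and 8.28 on the CD71-positive arrays, a difference of -2.27 ± 0.45. Btg1, an antiproliferative gene, measured 11.32, 11.30 and 11.77 on the CD71-negative arrays and 9.18, 9.35 and 10.19 on the CD71-positive arrays, a difference of -1.89 ± 0.25. Pik3ip1, an inhibitor of PI3 kinase, measured 7.67, 7.68 and 8.04 against 5.72, 5.98 and 6.27, a difference of -1.80 ± 0.15. Ypel3, which slows growth, was detected on 2 of 3 CD71-negative and 0 of 3 CD71-positive arrays, with means of 10.8 and 8.49. Its signal stood above the floor in both groups, so its bound of 5.03-fold lower equals its measured difference of -2.33 ± 0.28. Hbp1, a repressor of cell cycle genes, measured 8.55, 8.12 and 8.58 against 6.11, 6.15 and 6.74 and was detected on 2 of 3 arrays in each group. Of the 23 inhibitors and quiescence genes 6 were lower and 2 higher (26.1% and 8.7%, against 13.1% and 12.0% of all tested genes). Leaving out each array in turn gave 4 to 9 lower and 2 higher. With the arrays scaled at a percentile instead of quantile normalization, 4 were lower and 1 higher, and the median of -0.21 became -0.05. Foxo1, a transcription factor of lymphocyte rest, gave -0.19 with an interval of -0.41 to 0.03.

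Regulators of cell death and autophagy changed in part. Mcl1, the survival protein on which double-positive cells depend in mice, measured 9.19, 9.32 and 9.08 on the CD71-negative arrays and 7.66, 7.58 and 8.15 on the CD71-positive arrays, a difference of -1.40 ± 0.28. Fas, a death receptor gene, measured 7.75, 7.37 and 8.21 against 6.47, 6.38 and 6.59, a difference of -1.30 ± 0.23, and Bmf and Bcl2l11, which encode killers of the same family as Mcl1, gave -0.78 ± 0.14 and -0.39 ± 0.07. Bcl2l1, another survival gene, gave -0.20 and did not pass (adjusted p = 0.221). Casp6, a caspase gene, was lower, at -0.70 ± 0.16. Of 28 genes of the list 7 were lower and 3 higher, the latter 1 without CD71-negative array 2 (median -0.06). These counts became 2 and 0, and the median 0.11, with 75th percentile scaling. Targets of p53 were lower in 4 of 23 cases and higher in 1 (17.4% and 4.35%, against 13.1% and 12.0% of all tested genes). The lower count was 7 without mutant CD71-negative array 1. Differences in this list ran from 1.78 to -1.77, the latter that of Trp53inp1 (-1.77 ± 0.17), and Sesn1 gave -0.98 ± 0.11. The median of -0.06 over the p53 targets became 0.10 with 75th percentile scaling, where 2 were lower and 1 higher.

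Lysosome and autophagy genes were lower in 9 of 37 cases and higher in 2, the latter 1 without CD71-negative array 1 or CD71-positive array 1 or 2. Scaled at the 75th percentile, 2 were lower and 0 higher, and the median of -0.01 became 0.12. Sqstm1, the cargo receptor p62, measured 8.03, 8.29 and 8.11 on the CD71-negative arrays and 6.92, 6.97 and 7.08 on the CD71-positive arrays, a difference of -1.15 ± 0.16. Bnip3l, of mitochondrial removal, gave -1.14 ± 0.19, Ulk1, the kinase that starts autophagy, -0.69 ± 0.10, and Atg5, of the conjugation system, was higher, at 0.59 ± 0.12. Gabarap was bright in both groups and gave 0.07 with an interval of -0.23 to 0.36.

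Receptors for homing and cytokines were lower in 12 of 39 cases and higher in 0. The count was 7 without CD71-negative array 1, 6 without CD71-negative array 2 or CD71-positive array 3, 5 without CD71-positive array 1 and 0 with 75th percentile scaling, where the median of -0.11 became 0.05. Socs3, a feedback inhibitor of cytokine signals, gave -0.61 ± 0.12 and Il17rb, a receptor chain, -0.53 ± 0.11. Interferon response genes seldom passed the test, with 1 higher and 4 lower of 41 (below the shares of all tested genes, 12.0% and 13.1%). The count of lower members was 1 without CD71-negative array 1 or 2 or CD71-positive array 1 and 1 with 75th percentile scaling, and that of higher members 2 without mutant CD71-positive array 2 or 3. Igtp, an interferon-induced GTPase, measured 8.79, 8.67 and 8.48 on the CD71-negative arrays and 6.66, 7.09 and 7.20 on the CD71-positive arrays, a difference of -1.66 ± 0.14. Psmb9, an immunoproteasome subunit, was higher, at 0.98 ± 0.15. B2m, the shared chain of class I molecules, gave -0.14 with an interval of -0.44 to 0.16.

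Some of the largest differences belonged to genes outside these lists. Pbk, a mitotic kinase, measured 5.49, 5.66 and 5.59 against 10.20, 10.12 and 9.78. Nrm, a protein of the inner nuclear membrane, measured 6.46, 6.61 and 6.57 against 10.09, 10.20 and 9.96, a difference of 3.53 ± 0.17. Cdca3, which takes part in the destruction of the mitotic brake Wee1, differed by 3.68 ± 0.14 and was detected on 2 of 3 CD71-negative arrays. 2700094K13Rik (Selenoh), a selenoprotein of the nucleus, and Prdx4, a peroxidase of the secretory pathway, differed by 3.07 ± 0.18 and 3.02 ± 0.16. Among the falls, St6gal1, which adds sialic acid to surface sugars, measured 9.03, 9.41 and 9.63 on the CD71-negative arrays and 6.25, 6.24 and 7.35 on the CD71-positive arrays. P2ry5 (Lpar6), a lysophosphatidic acid receptor, measured 10.29, 10.24 and 10.14 against 8.03, 8.03 and 8.17, a difference of -2.15 ± 0.15, and F2r, the thrombin receptor, gave -1.95 ± 0.24. A430107D22Rik (Rasal3), which switches Ras off, gave -1.999 ± 0.23, Nedd9, an adhesion adaptor, -1.93 ± 0.19, and Cd52, a surface glycopeptide, -1.96 ± 0.33. Wdr78, of the dynein of motile cilia, and Spo11, which cuts DNA in meiosis, fell as well. Wdr78 measured 9.24, 9.28 and 9.51 against 6.41, 6.13 and 7.53 and Spo11 8.52, 8.49 and 9.58 against 6.20, 5.72 and 6.90. The histone entries Hist1h2ag (H2ac11) and Hist2h2ab (H2ac21) differed by 3.22 ± 0.25 and 3.19 ± 0.28, and their near-identical copies may share probes.

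The deposited detection p-values of the same arrays separated some genes completely. In all, 111 of 8247 tested genes were detected on 3 of 3 CD71-positive and 0 of 3 CD71-negative arrays, and 45 the other way round. Detection on 3 arrays of 1 group is enough to enter the test, so these counts are a description and no separate evidence. Besides the kinesins and Mcm10, the first set held the helicase gene Pif1 (at least 5.55-fold higher), Tipin, of the fork protection complex (4.6), the spindle assembly factor Tpx2 (3.44), the repair helicase gene Blm (3.15) and Dlgap5, of kinetochore fibres (2.76). In the second set the bounds named here were smaller. Plekhf1 was at least 1.18-fold lower, and Parp3, of DNA break repair, at least 1.23-fold (adjusted p = 0.0434). The call of Parp3 was lost without any 1 CD71-positive array or any 1 mutant array (adjusted p = 0.0554 to 0.101). Car15, with a bound of 1.13-fold, did not pass the test (adjusted p = 0.113). Of the 6180 genes with no call, 4722 had a 95% interval within -0.5 to 0.5 and 1458 reached beyond it, and 907 had an unadjusted p under 0.05.

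Several genes with values above were detected on only some arrays of a group. Those were Bub1b, Ccna2, Cdca5, Cks2, H3f3a, Hmga1, Ly6a, Ndufb6, Orc2l, Psmb2, Spc25, Tk1 and Uhrf1 on 1 of 3 CD71-negative arrays. Others were B2m, Ccnd3, Ccne2, Cd74, Cdca8, Cenpn, Chaf1a, Dusp6, E2f6, Esco2, Gtse1, H2-Ab1, Kif3a, Rad54l, Rasgrp1, Rbl1, Rrm2, Slc38a2, Spo11, Tyms and Vars on 2 of 3 CD71-negative arrays. Others were Bmf, Dusp6, Ndufb6, Orc2l, Prim1 and Uhrf1 on 1 of 3 CD71-positive arrays. Others were Bcl2l11, Ccna2, Gtse1, Icos and Psmb2 on 2 of 3 CD71-positive arrays.

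Genes on the sex chromosomes were examined because the samples were of mixed sex. Xist, expressed in female cells, measured 5.65, 5.57 and 5.71 against 5.55, 5.50 and 5.66 and did not pass (-0.07). The Y-linked gene Ddx3y measured 6.18, 6.40 and 6.44 against 5.74, 5.54 and 5.68 and was lower (-0.68 ± 0.15, detected on 1 of 3 CD71-negative arrays), while Eif2s3y, also Y-linked, measured 5.76, 5.995 and 6.88 against 5.91, 5.59 and 6.05 and did not pass (adjusted p = 0.521). The X-linked demethylase gene Utx (Kdm6a) was lower, at -1.16 ± 0.17. The labels do not give the sexes of single samples, and the part of sex in the results was not tested.

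Markers of mature single-positive T cells, which could enter the gate, were lower in 3 of 14 tested cases and higher in 0. The lower count was 1 without CD71-negative array 1 or 2, CD71-positive array 1 or 3 or mutant CD71-negative array 3, and 0 with 75th percentile scaling. Their summed linear signal was 903 to 1067 in CD71-negative and 837 to 896 in CD71-positive samples. Their part in the results on T-cell receptor genes was not tested. Icos, a costimulator of activated T cells, gave -0.28 ± 0.04. Of the 7 tested natural killer and innate-like markers 0 passed in either direction, and 749 to 829 stood against 699 to 737 in their sums.

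The same contrast was measured in cells with the I15N change, and the difference between the 2 contrasts was tested for each gene as an interaction. By limma 1 of 8247 genes passed (0.0121%), with 466 at an unadjusted p under 0.05, and 0 passed under most alternatives. LOC100044190, unmatched in RefSeq and named because of its values, measured 6.41, 6.47 and 6.25 against 6.33, 6.21 and 6.45 in wild type, a difference of -0.04 ± 0.08, against 1.05 ± 0.08 in mutants. Set side by side, the difference was 3.88 ± 0.06 in wild type and 3.57 ± 0.06 in mutants for Plk1, 2.35 ± 0.05 and 2.64 ± 0.05 for E2f1, 2.29 ± 0.14 and 2.66 ± 0.14 for Tpi1, -1.71 ± 0.28 and -2.24 ± 0.28 for Cd28, -1.87 ± 0.22 and -1.53 ± 0.22 for Bach2, -1.40 ± 0.28 and -1.59 ± 0.28 for Mcl1 and -1.89 ± 0.25 and -2.39 ± 0.25 for Btg1. None of these 7 passed the interaction test (adjusted p = 0.338 to 0.98), and a p above the threshold does not show that the contrasts were alike. Myeloid and dendritic markers summed to 1000 to 1009 in mutant CD71-negative and 1263 to 2796 in mutant CD71-positive samples, against 977 to 981 and 1064 to 1191 in wild type, and the part of these cells in the results was not tested.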

How the data were processed

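Gene expression was measured on 1-colour bead arrays, 1 array for each of 12 samples, in 4 groups of 3. For every gene symbol and array the authors deposited an intensity on a linear scale beside its detection p-value, per the file headers. No header or label states how probes of a gene were combined. A second deposited table of processed intensity values served as an alternative. The submitters' processing notes name RMA without saying for which table. The deposited signals were background-corrected from their detection p-values, offset by 16, quantile-normalized and put on the log2 scale (neqc, limma 3.58.1, R 4.3.3). Of 18138 genes 8247 were tested, those detected (p under 0.05) on 3 or more arrays. The 4 group means were fitted on all 12 arrays (lmFit and eBayes), and the wild-type contrast and its interaction with genotype were tested with Benjamini-Hochberg adjustment over all tested genes. A gene was called at an adjusted p under 0.05. The interaction is between contrasts that share no sample. A gene undetected on 3 of 3 arrays of a group has only a bound there. It is given as at least N-fold, from the bright group's mean against the higher of the dim probe's own value and the lowest detected signal per array. Where the dim probe's own value is the higher on every array, the bound equals the measured fold. The fit was tested on simulated data in 10 runs that changed 200 of 8247 genes. It recovered 62.6% at a log2 change of 0.5, 85.8% at 1 and 97.4% at 2, and 5.78% of calls were false. These rates belong to those 10 runs. Whether they hold for the measured contrast, in which 2067 of 8247 genes were called, was not tested. Symbols were matched to RefSeq on GRCm38.p6, 14307 directly and 2906 through a synonym, while 925 kept the file's name. No column of another sample was present. Some genes are not reported here.

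The comparison and the 54 lists (1602 genes) were chosen with earlier results of these data known, so their counts are descriptions, read against the shares of all tested genes. Genes were named by rule. These were the markers of the sort and of the comparison, the largest rises and falls whose arrays did not overlap, and the largest bounds. List members were named by p-value in each direction, by size among those without a call and by narrow interval. List members whose role the text describes were named as well. From these, members that kept their call without any 1 array were preferred. Alternatives changed the background correction, the values, the normalization, the filter, the variance model, the samples, the block, the weights and the threshold, and left out each array in turn.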

Additional observations from a re-analysis of the deposited data

Results flagged for a closer look

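The contrast between CD71-positive and CD71-negative cells differed between genotypes for 1 gene entry. LOC100044190 differed by 1.09 ± 0.11 more in I15N than in wild-type samples (log2, SE, adjusted p = 0.0325, limma interaction). The 0 calls that most alternatives gave for this test, and its range without single arrays, are given with the effects of the processing.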

How the results depend on the processing

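The scaling of the arrays changed the counts most. With each array scaled at its 75th percentile 614 genes passed, 406 higher and 208 lower, against 2067 (987 and 1080). The median over all genes moved by 0.15. Of 208 named genes with a call 151 kept it and 55 lost it under that scaling. Gimap5 and Hnrnpc took the other sign, at 0.016 and 0.21. So did the medians of 5 lists, interphase kinesins at 0.11, V(D)J recombination at 0.086, homing and cytokine receptors at 0.046, the BCL2 family at 0.11 and p53 targets at 0.10. An adjusted p under 0.01 left 1220 genes, 624 higher and 596 lower. Leaving out each array in turn gave 1521 to 2153 calls, 790 to 994 higher and 731 to 1175 lower. Calls shared with the main fit were fewest, 1488 of 2067, without wild-type CD71-positive array 1. Of the 208 named genes 198 kept their call in every such fit. Members that did so were preferred when genes were named, so this rate does not describe all called genes. Some named genes with no call passed under other settings, such as Rag2 in 7 of 25 and Lat in 5. With the replicate number as a block 2064 genes passed (990 higher and 1074 lower), 1897 of them shared with the fit without it. Whether the numbers pair the samples could not be settled. Same-numbered deviations from the group means correlated at -0.41, 0.39 and 0.26 across genes, and differently numbered ones at -0.61 to 0.50. The background setting, the authors' values, cyclic loess, the filters, the variance model, wild-type arrays alone, array weights and array brightness gave 1494 to 2422 calls. The interaction with genotype gave 0 genes with either other background setting, the authors' values, cyclic loess, 75th percentile scaling, no filter, trend and robust variance, the replicate block, array brightness and an adjusted p under 0.01. It gave 45 with array weights, and 0 to 5 with single arrays left out. The cause of these shifts was not tested. Low signal limits what genes near the floor can show.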
